A study of Rattus norvegicus with 15 samples.

Results

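The experiment described here set primary rat hepatocytes exposed to 100 µM flutamide against hepatocytes given only the solvent DMSO. It takes in 9 of the 15 arrays of the series: 4 arrays at 100 µM (biochips 15, 16, 26 and 27) and 5 DMSO arrays (biochips 10, 11, 20, 21 and 22). The arrays were chosen by the treatment and the biochip number in their titles, and no measured value entered the choice. The 6 remaining arrays, at 10 µM, helped to estimate the spread and are quoted beside some results. All cells were freshly isolated hepatocytes seeded on coated microfluidic biochips, perfused with medium holding insulin, transferrin and selenium, and exposed for 24 h. The labels give no strain, sex or age of the animals, and name no genetic change. Whether the biochips came from different animals or isolations is not stated, and the p-values reflect only how far these particular samples scatter, which may be technical.

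The biochip numbers form 2 runs, 10 to 16 (run 1) and 20 to 27 (run 2), and each run holds every group. The labels do not say what the numbers stand for. Run 1 has 2 arrays at 100 µM and 2 DMSO arrays, and run 2 has 2 and 3. Differences below are log2 differences, 100 µM minus DMSO, from a limma fit over all 15 arrays with the run as a block, so that -1 means a 2-fold lower value. SE is the standard error of a difference, and values within each run are given for some of the genes.

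Flutamide is a nonsteroidal antiandrogen that has been used against prostate cancer and is known for liver injury in some patients. In hepatocytes it is oxidised by cytochrome P450 enzymes and conjugated, and it has been reported to hamper mitochondrial respiration and to activate the aryl hydrocarbon receptor. Hepatocytes burn fatty acids in mitochondria and peroxisomes, make urea and glucose from amino acids, and make bile acids and pump them into bile. Nuclear receptors and liver-enriched transcription factors keep the genes of these pathways active, and cultured hepatocytes tend to lose them with time.

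The labelled cell type was checked against its markers. All 10 hepatocyte markers measured had a mean log2 level of at least 6, and their mean lay between 10.96 and 11.16 in the DMSO arrays and between 10.82 and 10.99 at 100 µM. Of the markers of other cell types, that level was reached by 10 of 19 for Kupffer cells and macrophages, 4 of 19 for stellate cells, 2 of 16 for lymphocytes, 2 of 7 for red blood cells, 1 of 11 for cholangiocytes and 0 of 15 for endothelial cells. Pairs of the 9 arrays correlated at 0.967 to 0.99 across all deposited probe sets. Biochip 15 was the least alike: its correlation with the other arrays had a median of 0.971, and its estimated array weight was 0.427. The other arrays of the comparison had medians of 0.983 to 0.986 and weights of 0.91 to 1.36. Among the 10 µM arrays, which helped to set the spread, biochip 23 had a median of 0.967 and a weight of 0.205. Biochip 24 had 0.978 and 0.549. For some of the genes and lists in which biochip 15 lay far from the other treated arrays, the difference without it is given too.

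No gene passed a Benjamini-Hochberg adjusted p of 0.05 in the limma fit (0 of 14506 genes, 0.0%), and the lowest adjusted p was 0.356. At an unadjusted p under 0.05 there were 993 genes (6.85% of those tested), 497 higher (3.43%) and 496 lower (3.42%), where 725 would be expected by chance. Without biochip 27 the number lower was 317. A fit of only the 9 arrays of the comparison gave 529 higher and 637 lower. The 95% interval of a gene's difference had a median half-width of 1.2-fold. The genes named below are therefore described by their values in each array and not as changed.

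The larger differences were mostly downward, and more so in run 2 than in run 1. There were 205 genes (1.41%) with an estimate at least 1.5-fold lower and 38 (0.262%) at least 1.5-fold higher. The number lower was 393 without biochip 16 and 314 without biochip 26. The number higher was 65 without DMSO biochip 10, 59 without biochip 15, 64 without biochip 16 and 71 without biochip 26. Run 1 alone gave 270 genes lower and 183 higher by that size, and run 2 alone 532 lower and 159 higher. A 2-fold difference was reached by 22 genes downward (0.152%) and 3 upward (0.0207%). Among the 6729 genes with a mean log2 level of at least 6, 57.1% had an estimate below 0, against 44.3% of all genes. In the limma fit over all genes, 368 of these 6729 were lower and 207 higher at an unadjusted p under 0.05. Falls were thus more common among brighter genes than in the shares of all genes set beside the lists below.

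The runs shared little of the pattern across the genome. Across genes, which are not independent replicates, the differences of run 1 and run 2 correlated at 0.06, and 52.1% of genes had the same sign in both. In 285 genes (1.96%) every 100 µM array lay below every DMSO array in each run, and in 369 genes (2.54%) every one lay above. Of these, 195 and 154 had a mean log2 level of at least 6. Fewer arrays separate more easily by construction, and the counts of 285 and 369 moved with the array left out. The number lower was 480, 923, 563 and 455 without biochips 15, 16, 26 and 27, and 574 and 540 without DMSO biochips 10 and 11. The number higher was 665, 973, 872 and 661 without the same treated arrays, and 711, 683 and 601 without DMSO biochips 10, 11 and 22. Biochip 16 lay closest to its controls, with an SD over genes of 0.23 around the DMSO mean of its run, against 0.40 for biochip 15, 0.28 for biochip 26 and 0.35 for biochip 27.

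**Figure D1:**
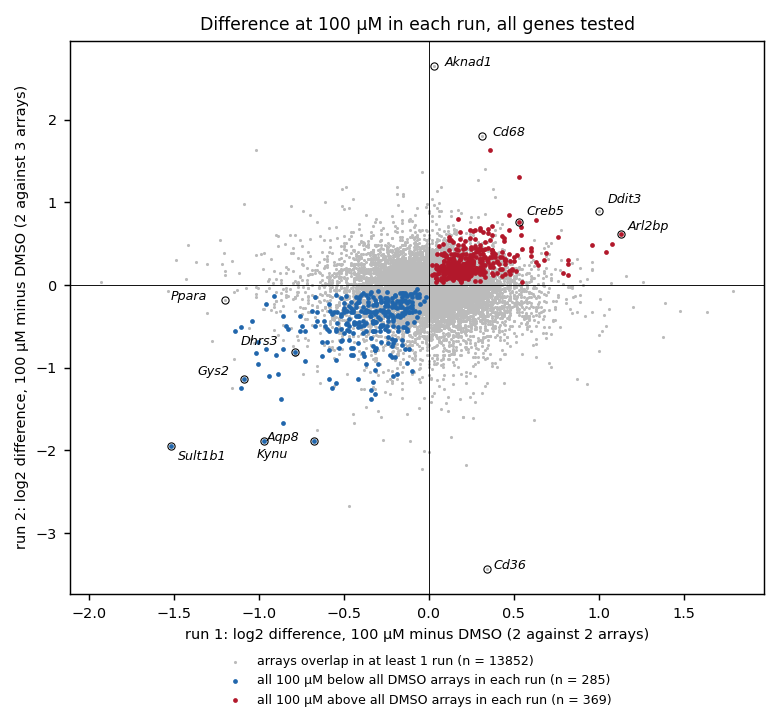
Each point is a gene, with its log2 difference (100 µM minus DMSO) in run 1 on the horizontal axis and in run 2 on the vertical axis. The cloud shows no common slope (r = 0.06), blue points are the 285 genes and red points the 369 genes whose arrays did not overlap in either run, and circled genes are named in the text.

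The 5 named genes of lowest p among those lower at 100 µM take part in uptake, retinoid, tryptophan and glycogen metabolism. Their promoters are shown because these genes lay lower in each run, and because liver factors are known to act close to the start of such genes. The sequences are RefSeq's on assembly GRCr8, 250 bases before to 50 bases after the gene's start, 5′ to 3′ on the gene's strand. They lie at chr5:162031603-162031902 (Dhrs3, plus strand), chr1:187424193-187424492 (Aqp8, plus), chr3:48188036-48188335 (Kynu, plus), chr4:176282334-176282633 (Slco1b2, plus) and chr4:177137187-177137486 (Gys2, minus). Capitals mark matches to a searched motif held by less than 20% of promoters.
Dhrs3: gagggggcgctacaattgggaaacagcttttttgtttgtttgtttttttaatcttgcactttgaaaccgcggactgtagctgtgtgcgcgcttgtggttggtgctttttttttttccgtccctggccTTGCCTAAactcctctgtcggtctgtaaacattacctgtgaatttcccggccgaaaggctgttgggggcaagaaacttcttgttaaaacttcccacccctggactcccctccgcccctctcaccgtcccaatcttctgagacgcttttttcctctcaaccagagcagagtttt
Aqp8: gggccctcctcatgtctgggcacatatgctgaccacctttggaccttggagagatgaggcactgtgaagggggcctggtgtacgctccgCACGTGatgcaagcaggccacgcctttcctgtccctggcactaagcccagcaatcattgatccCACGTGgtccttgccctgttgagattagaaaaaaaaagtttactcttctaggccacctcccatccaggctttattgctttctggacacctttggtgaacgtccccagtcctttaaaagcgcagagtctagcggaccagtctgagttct
Kynu: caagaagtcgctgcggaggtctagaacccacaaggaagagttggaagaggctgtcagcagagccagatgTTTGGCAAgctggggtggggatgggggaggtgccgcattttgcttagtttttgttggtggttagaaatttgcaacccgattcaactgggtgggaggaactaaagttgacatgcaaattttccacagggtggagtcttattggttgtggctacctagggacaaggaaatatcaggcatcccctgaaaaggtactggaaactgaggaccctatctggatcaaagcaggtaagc
Slco1b2: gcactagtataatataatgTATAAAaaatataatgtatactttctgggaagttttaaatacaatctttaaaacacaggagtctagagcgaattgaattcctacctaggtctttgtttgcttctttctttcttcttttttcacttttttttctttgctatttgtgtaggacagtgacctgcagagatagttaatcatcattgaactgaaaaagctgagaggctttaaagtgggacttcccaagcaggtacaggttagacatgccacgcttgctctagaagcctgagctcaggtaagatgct
Gys2: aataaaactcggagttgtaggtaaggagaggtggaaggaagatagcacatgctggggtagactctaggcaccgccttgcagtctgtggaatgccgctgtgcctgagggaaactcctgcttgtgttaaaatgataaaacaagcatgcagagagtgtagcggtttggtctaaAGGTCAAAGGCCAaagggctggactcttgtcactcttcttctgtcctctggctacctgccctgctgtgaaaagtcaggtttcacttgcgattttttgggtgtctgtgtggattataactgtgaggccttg

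In all, 12 spellings of 10 motifs were searched on both strands in these promoters and in those of the 11968 tested genes with a 300-base entry. The spellings were HNF1 (held by 0.0501% of the promoters, and a shortened form, 0.368%), the HNF4 core (CAAAGTCCA, 0.393%), C/EBP (TTGCNNAA, 9.97%), the E-box (CACGTG, 7.87%) and CRE (TGACGTCA, 2.46%). The others were the AhR core (GCGTG, 40.6%), the TATA box (TATAAA, 11.8%), the CCAAT box (CCAAT, 38.3%), the NRF2 element (TGACNNNGC, 13.8%) and DR1 (0.0334%, and a relaxed form with 1 base left free in each hexamer, 0.334%). HNF1 was shortened when the search was written. DR1, a direct repeat of the kind bound by HNF4A and PPARA, was relaxed after a near match was seen in the Gys2 promoter. Its match there, AGGTCAAAGGCCA at positions -80 to -68 from the start, is thus no finding, and the DR1 spelling set first matched none of the 5. C/EBP letters stood in the Dhrs3 and Kynu promoters and the E-box letters at 2 places in Aqp8. The capitals in Slco1b2 are the letters TATAAA at -231 to -226. With 12 spellings searched, matches at such frequencies are a description of the sequence only.

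Dhrs3, a retinal reductase of retinoid metabolism, had log2 levels of 6.38, 6.38, 6.42, 6.35 and 6.77 in DMSO biochips 10, 11, 20, 21 and 22. At 100 µM the levels were 5.37, 5.81, 6.01 and 5.40 in biochips 15, 16, 26 and 27. All 4 treated arrays lay below all 5 controls, as they did for 135 of all genes (0.931%). The difference was -0.80 (SE 0.15, 1.74-fold lower, limma adjusted p = 0.356), with -0.79 in run 1 and -0.81 in run 2. Without biochip 15 it was -0.72.

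Aqp8, a water channel of the canalicular membrane and mitochondria, had DMSO levels of 7.04, 6.49, 7.75, 7.48 and 7.21 and 100 µM levels of 5.95, 6.23, 5.72 and 5.46. The groups did not overlap, and the gap was wider in run 2, whose controls were higher. The difference was -1.33 (SE 0.25, 2.52-fold lower, limma adjusted p = 0.356), with -0.68 in run 1 and -1.89 in run 2.

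Kynu encodes kynureninase, an enzyme of tryptophan breakdown on the way to NAD. Its DMSO levels were 6.64, 6.85, 7.93, 7.27 and 7.89, and its 100 µM levels were 5.14, 6.40, 5.97 and 5.63. All treated arrays lay below all controls, with biochip 15 lowest and biochip 16 nearest to the controls. The difference was -1.50 (SE 0.29, 2.83-fold lower, limma adjusted p = 0.356), with -0.97 in run 1 and -1.89 in run 2.

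Slco1b2, which carries bile acids and drugs from blood into the hepatocyte, was a dim gene. Its levels were 5.77, 5.63, 5.27, 6.0 and 5.51 in DMSO and 4.47, 5.20, 4.65 and 4.98 at 100 µM. The groups did not overlap, by a margin of less than 0.1 between biochip 16 and DMSO biochip 20. The difference was -0.81 (SE 0.16, 1.76-fold lower, limma adjusted p = 0.356), and it was of like size in run 1 (-0.86) and run 2 (-0.77).

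Gys2, the liver glycogen synthase, had DMSO levels of 7.49, 7.58, 7.74, 8.01 and 7.90 against 5.88, 7.01, 6.71 and 6.78 at 100 µM. Biochip 15 was lowest, and the other 3 treated arrays still lay below every control. The difference was -1.13 (SE 0.23, 2.18-fold lower, limma adjusted p = 0.356), with -1.09 in run 1, -1.13 in run 2 and -0.91 without biochip 15.

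**Figure D2:**
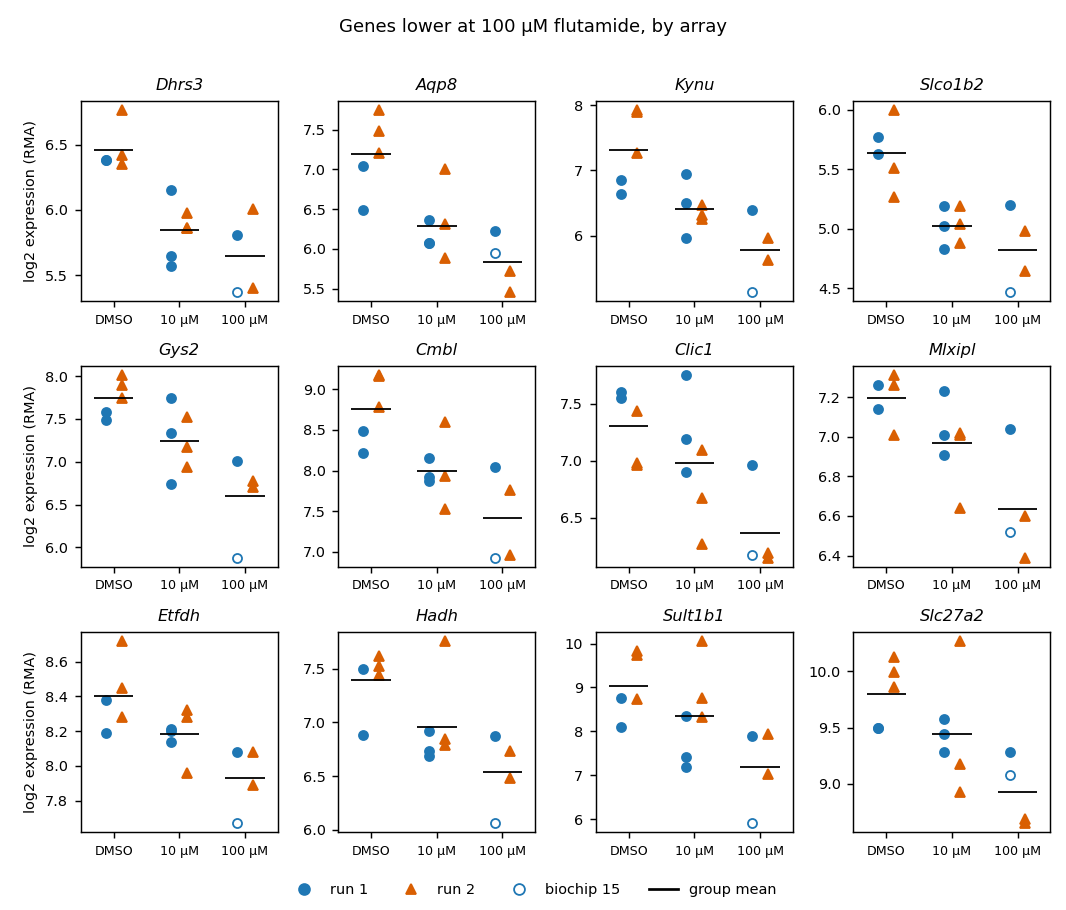
Log2 expression (vertical axes) of 12 genes lower at 100 µM in every array of the DMSO, 10 µM and 100 µM groups; circles are run 1, triangles run 2, the open circle biochip 15 and bars the group means. In Dhrs3, Aqp8, Kynu, Slco1b2 and Gys2 all 4 arrays at 100 µM lie below all 5 DMSO arrays, and biochip 16 is often the treated array nearest to the controls.

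Sult1b1, a sulfotransferase that conjugates phenols and thyroid hormones, had one of the largest differences. Its DMSO levels were 8.10, 8.76, 9.74, 9.83 and 8.73, and its 100 µM levels were 5.91, 7.90, 7.94 and 7.04. The groups did not overlap, and the treated arrays spread over a wider range than the controls. The difference was -1.73 (SE 0.45, 3.31-fold lower, limma adjusted p = 0.51), with -1.46 without biochip 15. Related sulfotransferases can share probe sequence, so the value is uncertain to that extent.

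Other named genes lower in each run were Cmbl, a hydrolase that activates prodrugs (-1.31, SE 0.27), the chloride channel protein Clic1 (-0.99, SE 0.20) and A1cf, a cofactor of apolipoprotein B messenger editing (-1.18, SE 0.35). In each of the 3, all treated arrays lay below all controls. For A1cf the treated levels were 6.06, 8.08, 7.92 and 6.64 against controls of 8.08 to 8.54 (8.08 in biochip 16 and in DMSO biochip 10 to 2 decimals), and the difference was -0.84 without biochip 15. Smaller differences with the same separation were those of the ubiquitin ligase Rnf41 (-0.45, SE 0.10), the heparan sulfate proteoglycan Sdc2 (-0.41, SE 0.09), Adap2 (-0.57, SE 0.13) and Cds1, an enzyme of phospholipid synthesis (-0.34, SE 0.08). Sdc2 had the tightest controls, 10.05 to 10.15, against 9.53 to 9.85 at 100 µM.

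Fatty acid oxidation genes and targets of PPARA, the nuclear receptor that drives them, lay lower as a list. Of 39 measured members, 34 were lower and 5 higher. The median difference was -0.34, against 0.02 over all genes and -0.03 over genes with a mean log2 level of at least 6. Estimates below 0 were held by 44.3% of all genes and 57.1% of those brighter ones. This and the other gene lists were chosen with earlier results of these data known. At an unadjusted p under 0.05, 15 members were lower and 0 higher, against 3.42% and 3.43% of all genes. In 4 members, all lower, the arrays did not overlap within either run, against 1.96% of all genes. None passed the adjusted threshold (0 of 39). The median was -0.11 in run 1 and -0.47 in run 2. By array, the median distance from the DMSO mean of the run was -0.28 in biochip 15, 0.03 in biochip 16, -0.40 in biochip 26 and -0.61 in biochip 27, so biochip 16 did not share the shift.

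Hadh, which carries out the third step of mitochondrial beta-oxidation, had DMSO levels of 6.88, 7.50, 7.62, 7.44 and 7.53 and 100 µM levels of 6.06, 6.87, 6.73 and 6.48. The groups did not overlap, although DMSO biochip 10 and biochip 16 were 0.01 apart. The difference was -0.83 (SE 0.21, 1.78-fold lower, limma adjusted p = 0.51), with -0.73 in run 1 and -0.92 in run 2. Etfdh, which passes electrons from beta-oxidation to ubiquinone, lay at 8.19 to 8.72 in DMSO and at 7.67 to 8.08 at 100 µM, without overlap (-0.47, SE 0.11, limma adjusted p = 0.51). Etfb, a subunit of the flavoprotein that feeds it, did not overlap either (-0.28, SE 0.11, limma adjusted p = 0.698), but was -0.17 without biochip 15.

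Other enzymes of the pathway differed mainly in run 2. Acadvl, the very long chain acyl-CoA dehydrogenase, was -0.18 in run 1 and -0.80 in run 2. Acaa2, a mitochondrial thiolase, was -0.24 and -0.70, and Cyp4a3, a fatty acid hydroxylase induced through PPARA, -0.42 and -0.90. The fatty acid transporter Cd36 had opposite signs, 0.34 and -3.43, with levels of 8.92, 8.30 and 8.29 in the DMSO arrays of run 2 against 5.93 and 4.23 in biochips 26 and 27. Ppara itself was -1.20 in run 1 and -0.18 in run 2 (-0.63 in all, SE 0.30, limma adjusted p = 0.728), and -0.31 without biochip 15. Cpt1a, the gate of mitochondrial fatty acid uptake, was 0.15 in run 1 and -0.83 in run 2 (-0.41 in all, SE 0.26, limma adjusted p = 0.796).

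**Figure D3:**
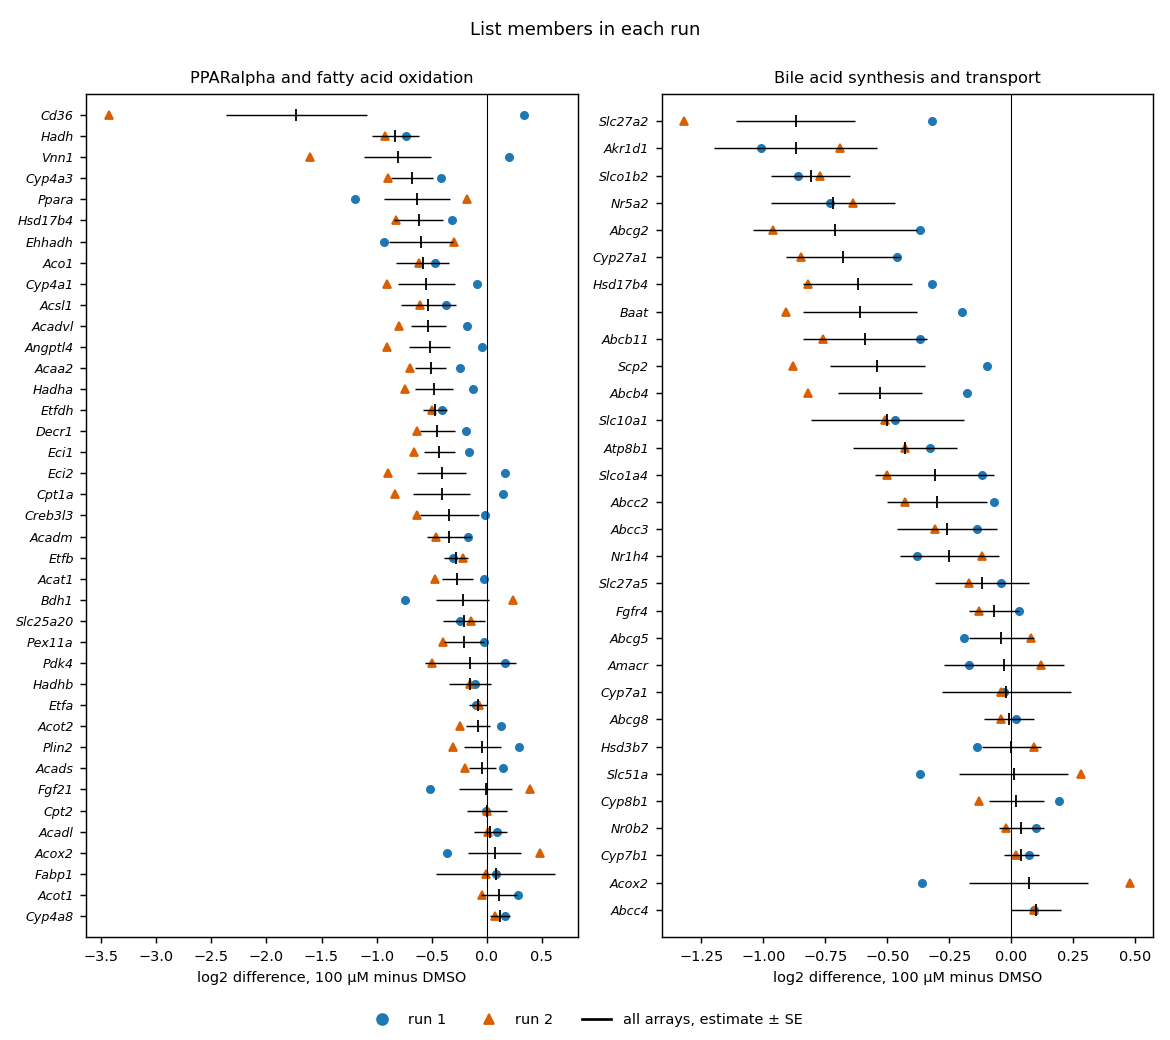
Log2 difference (horizontal axis, 100 µM minus DMSO) of each measured member of the fatty acid oxidation list (left, 39 genes) and the bile acid list (right, 30 genes); circles are run 1, triangles run 2, and black bars the estimate over all arrays ± SE. Most members lie left of 0, and for Cd36, Vnn1 and Ppara the runs lie far apart.

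Among the 41 lists, chosen with earlier results known, that of bile acid synthesis and transport had most members separated within each run. They were 7 of 30, all lower, against 1.96% of all genes separated lower. In all, 24 were lower and 6 higher, with a median of -0.28 (-0.18 in run 1, -0.37 in run 2). At an unadjusted p under 0.05, 11 were lower and 0 higher, against 3.42% and 3.43% of all genes. The list's array medians were -0.42, -0.09, -0.28 and -0.43 in biochips 15, 16, 26 and 27. None passed the adjusted threshold (0 of 30).

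Beside Slco1b2, the separated members included Slc27a2, a fatty acid and bile acid CoA ligase. Its DMSO levels were 9.50, 9.50, 10.13, 9.99 and 9.86, and its 100 µM levels were 9.08, 9.28, 8.65 and 8.69. All treated arrays lay below all controls, more widely in run 2 (-1.32) than in run 1 (-0.32). The difference was -0.87 (SE 0.24, 1.82-fold lower, limma adjusted p = 0.623).

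Cyp27a1, the sterol hydroxylase of the alternative bile acid pathway, had DMSO levels of 7.23 to 7.79 and 100 µM levels of 6.49 to 7.15, without overlap (-0.68, SE 0.23, limma adjusted p = 0.649). The canalicular bile salt pump Abcb11 was -0.59 (SE 0.25, limma adjusted p = 0.712) with overlapping groups, and the phospholipid exporter Abcb4 was -0.53 (SE 0.17, limma adjusted p = 0.649). The steroid reductase Akr1d1 was -0.87 (SE 0.33), but -0.50 without biochip 15. Cyp7a1, the rate-limiting enzyme of the classical pathway, was dim in every array (3.29 to 3.57) and differed by -0.02 (SE 0.26).

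Urea cycle and amino acid genes showed a like picture. Of 54 measured members, 47 were lower and 7 higher, with a median of -0.26. Of all genes 44.3% were lower, and of those with a mean log2 level of at least 6, as 39 members had, 57.1%. At an unadjusted p under 0.05, 12 were lower and 0 higher, against 3.42% and 3.43% of all genes. In 4 members, all lower, the arrays did not overlap within either run, against 1.96% of all genes. None passed the adjusted threshold (0 of 54). The median was -0.06 in run 1 and -0.37 in run 2, and 0.03 in biochip 16. Arg1, which releases urea, had DMSO levels of 7.57, 7.54, 8.68, 9.02 and 8.11 against 7.38, 7.30, 7.59 and 7.40 at 100 µM. The treated arrays lay below the controls within each run, while the ranges overlapped across runs. The difference was -0.70 (SE 0.30, limma adjusted p = 0.723), with -0.21 in run 1 and -1.10 in run 2. Cps1, the entry enzyme of the urea cycle, was 0.03 in run 1 and -1.30 in run 2.

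Gluconeogenesis and glycogen genes were lower in 17 of 21 members, with a median of -0.21. Of all genes 44.3% were lower, and of those with a mean log2 level of at least 6, as 18 members had, 57.1%. At an unadjusted p under 0.05, 3 members were lower, against 3.42% of all genes. Beside Gys2 these included Ppargc1a, a coactivator of mitochondrial and gluconeogenic genes, whose difference was -0.88 (SE 0.29, limma adjusted p = 0.649). Its levels were 6.62 to 7.36 in DMSO and 5.52 to 6.64 at 100 µM, with biochip 16 inside the range of the controls. Pck1, which commits carbon to glucose synthesis, was -0.28 (SE 0.30) with overlapping groups.

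Of 25 lipogenesis and triglyceride genes, 18 were lower, with a median of -0.19 that was -0.06 without biochip 15, -0.10 without biochip 27 and -0.29 without DMSO biochip 10. Mlxipl, the glucose-sensing transcription factor of this pathway, was -0.57 (SE 0.13, limma adjusted p = 0.436), with -0.42 in run 1 and -0.70 in run 2. Its DMSO levels were 7.26, 7.14, 7.31, 7.26 and 7.01 against 6.52, 7.04, 6.60 and 6.39, so only biochip 16 reached into the range of the controls. Fasn, the fatty acid synthase, was -0.17 (SE 0.23).

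Hepatocyte transcription factors were lower in 19 of 24 members, with a median of -0.19. Of all genes 44.3% were lower, and of those with a mean log2 level of at least 6, as 18 members had, 57.1%. At an unadjusted p under 0.05, 5 members were lower, against 3.42% of all genes. These were the xenobiotic receptor Nr1i2 (-0.43, SE 0.13), Prox1 (-0.71, SE 0.24), Nr5a2 (-0.72, SE 0.25, and -0.46 without biochip 15), Onecut1 (-0.37, SE 0.15) and Ppara. Hnf4a, a central regulator of hepatocyte identity, was -0.39 (SE 0.22, limma adjusted p = 0.777), with -0.04 in run 1 and -0.61 in run 2.

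Secreted proteins did not follow one direction. Hepatocyte plasma protein genes were higher in 20 and lower in 17 of 37, with a median of 0.06. Alb, which encodes albumin, differed by 0.07 (SE 0.07). Apob, the protein of very low density lipoprotein, was -0.66 (SE 0.21, limma adjusted p = 0.649), and the corticosteroid carrier Serpina6 was 0.85 (SE 0.29, limma adjusted p = 0.663). In the complement and coagulation list 32 of 38 members were lower, with a median of -0.17 (-0.09 in run 1, -0.25 in run 2, and -0.26 without DMSO biochip 10). Biochip 16 went the other way, with 11 of 38 below the DMSO mean of its run and an array median of 0.11. Plg, the precursor of plasmin, was an exception: its DMSO levels were 8.71, 8.77, 8.87, 9.10 and 9.02 and its 100 µM levels 9.17, 8.94, 9.40 and 9.42. It lay higher within each run (0.38, SE 0.09, limma adjusted p = 0.51).

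**Figure D4:**
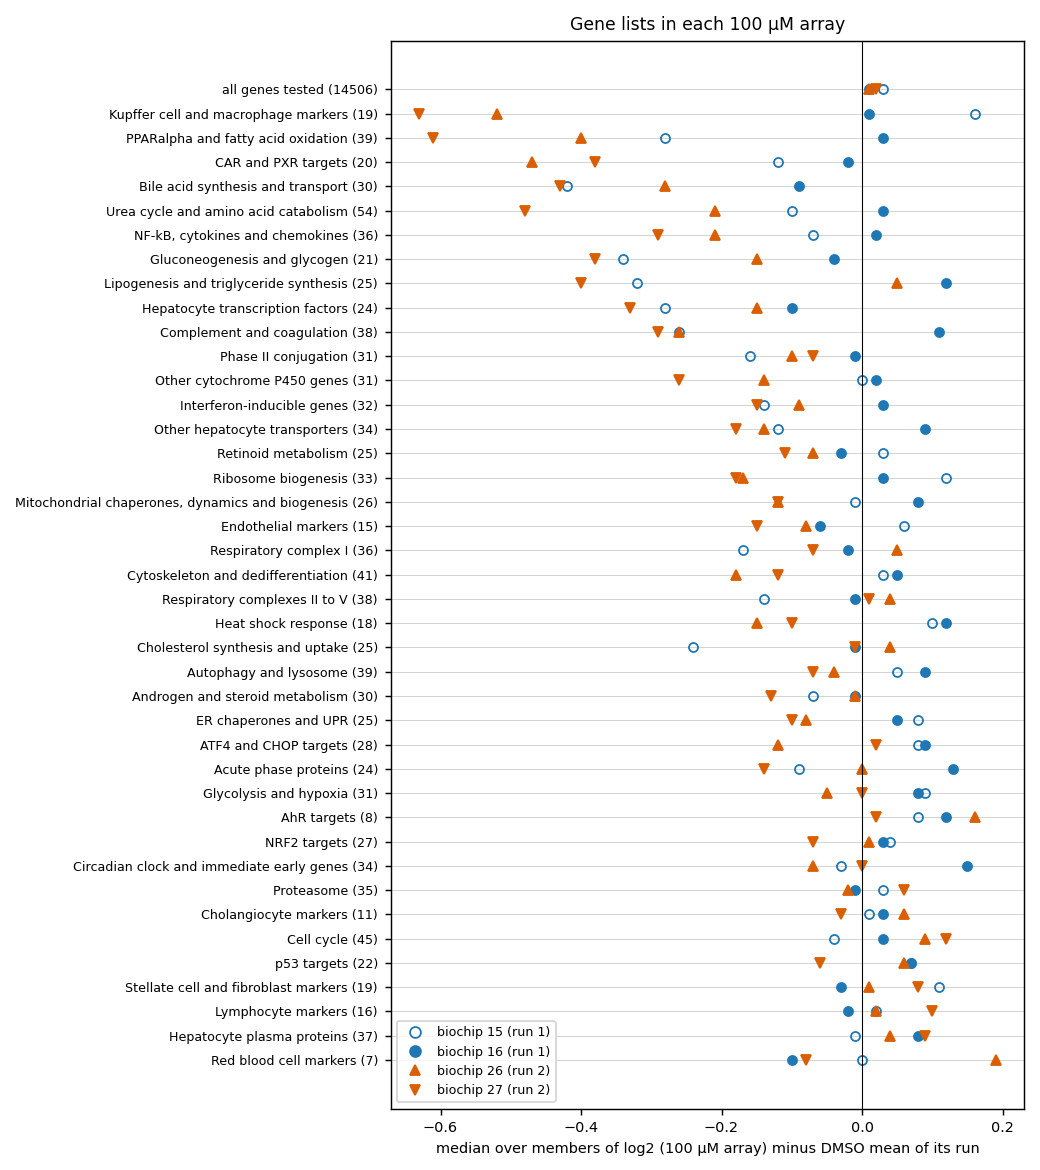
For each gene list (number of members in parentheses), the median over members of log2 level minus the DMSO mean of the same run (horizontal axis), with 1 symbol for each array at 100 µM. In the fatty acid oxidation list biochips 15, 26 and 27 lie at -0.28, -0.40 and -0.61 and biochip 16 at 0.03, while the median of all genes lies between 0.01 and 0.03 in every array.

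Genes induced by xenobiotics did not lie higher. Of 20 targets of the receptors CAR and PXR, 18 were lower and 2 higher, with a median of -0.31. Of all genes 44.3% were lower, and of those with a mean log2 level of at least 6, as 16 of these targets had, 57.1%. The median was -0.11 in run 1, -0.32 in run 2 and -0.23 without biochip 15. Biochip 16 had an array median of -0.02, with 10 of 20 below the DMSO mean of its run. At an unadjusted p under 0.05, 4 were lower and 0 higher, against 3.42% and 3.43% of all genes. Cyp2b1, a classical CAR target, had DMSO levels of 7.30, 6.05, 8.29, 7.19 and 8.42 and 100 µM levels of 6.80, 5.62, 5.50 and 5.08. The runs differed in size, -0.47 in run 1 and -2.67 in run 2, and the SE of the estimate of -1.71 was 0.72 (limma adjusted p = 0.708). Cyp2b1 has near-identical copies, so its probe set may read several of them. Por, the electron donor of P450 enzymes, had all treated arrays below all controls (-0.61, SE 0.27), by 0.01 between biochip 16 and DMSO biochip 22.

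The 8 measured targets of the aryl hydrocarbon receptor had a median of 0.00. Cyp1a1, its most responsive target in liver, had DMSO levels of 11.05, 10.66, 11.16, 11.03 and 11.19 and 100 µM levels of 10.16, 11.11, 11.44 and 11.05. It was bright in every array, and the groups overlapped. The difference was -0.07 (SE 0.44), and 0.19 without biochip 15. Cyp1a2 differed by 0.13 (SE 0.23). The receptor gene Ahr was -0.67 (SE 0.23, limma adjusted p = 0.658), with biochip 16 (7.59) within the controls (7.37 to 7.80), and -0.46 without biochip 15.

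Of 31 other P450 genes, 22 were lower, with a median of -0.13 (-0.20 without biochip 16). Of 31 conjugation genes 22 were lower, with a median of -0.13 that was -0.08 without biochip 15 and -0.06 within each run. Cyp2e1, which oxidises small molecules such as ethanol, was -0.83 (SE 0.36, limma adjusted p = 0.715), with -0.66 in run 1 and -0.98 in run 2. Its groups overlapped, and the difference was -0.66 without biochip 15. Targets of NRF2, the sensor of oxidative and electrophilic stress, were higher in 13 and lower in 14 of 27, with a median of 0.00. Nqo1 differed by 0.15 (SE 0.21), Hmox1 by -0.19 (SE 0.51) and Gclc by 0.02 (SE 0.12).

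Respiratory chain genes lay near 0. The 36 complex I genes had a median of -0.05 (0.01 without biochip 15), with 0 members at an unadjusted p under 0.05 in either direction by limma. The 38 genes of complexes II to V had a median of -0.04, with 1 member lower at that p (3.42% of all genes). That member, the ATP synthase subunit gene Atp5mc1, was -0.31 (SE 0.10, limma adjusted p = 0.649) and lay lower in each run. ER chaperones had a median of -0.02 and heat shock genes of -0.04. Hspa5, the main ER chaperone, differed by 0.06 (SE 0.11).

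Genes of the integrated stress response, in which ATF4 and CHOP respond to ER and nutrient stress, were split: 12 higher and 16 lower of 28, with a median of -0.02. At an unadjusted p under 0.05, 6 were higher and 2 lower, against 3.43% and 3.42% of all genes. None passed the adjusted threshold (0 of 28). Ddit3, which encodes CHOP, had DMSO levels of 7.93, 8.09, 8.87, 8.81 and 7.47 and 100 µM levels of 9.37, 8.64, 8.39 and 10.17. Both treated arrays of run 1 lay above their controls, whereas biochip 26 lay within the controls of run 2. The difference was 0.98 (SE 0.41, 1.98-fold higher, limma adjusted p = 0.708), and ranged from 0.72 to 1.42 with each array left out in turn.

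The other 5 higher members were Chac1, a glutathione-degrading enzyme (0.52, SE 0.19), the phosphatase subunit Ppp1r15a that reverses the response (0.53, SE 0.20), the stress hormone Gdf15 (0.41, SE 0.15), the mTORC1 inhibitor Ddit4 (0.39, SE 0.16) and Atf4 itself (0.21, SE 0.09). The lower ones were Phgdh, an enzyme of serine synthesis usually raised by ATF4 (-0.44, SE 0.10, limma adjusted p = 0.429), and Atf5 (-0.43, SE 0.19). Trib3, another target, differed by -0.03 (SE 0.16).

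Of 22 p53 targets, 13 were higher and 9 lower (40.9%), close to the 44.3% of all genes that were lower. The median was 0.03 (-0.04 without biochip 15, -0.01 without DMSO biochip 11). Ccng1, a cyclin induced by p53, had DMSO levels of 10.85, 10.91, 10.86, 10.82 and 10.55 and 100 µM levels of 11.15, 11.29, 10.95 and 11.14. All 4 treated arrays lay above all controls, as they did for 164 of all genes (1.13%). The difference was 0.32 (SE 0.10, limma adjusted p = 0.649). Mdm2, the ligase that degrades p53, was 0.31 (SE 0.13) and the cell cycle inhibitor Cdkn1a 0.41 (SE 0.17), both with overlapping groups. Plk3, another target, was -0.56 (SE 0.19).

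Genes higher at 100 µM were led by Creb5, a CRE-binding transcription factor. Its DMSO levels were 6.79, 6.51, 6.14, 6.47 and 6.40, and its 100 µM levels 7.04, 7.32, 6.99 and 7.20. The groups did not overlap. The difference was 0.65 (SE 0.12, 1.57-fold higher, limma adjusted p = 0.356), with 0.53 in run 1 and 0.76 in run 2.

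Fbxo3, a subunit of a ubiquitin ligase, had DMSO levels of 8.83, 8.60, 8.62, 8.70 and 8.59 and 100 µM levels of 9.13, 8.99, 9.09 and 9.44, without overlap (0.51, SE 0.10, limma adjusted p = 0.356). Arl2bp, which binds the small GTPase ARL2, had DMSO levels of 6.96 to 7.69 and 100 µM levels of 8.01 to 8.90, also without overlap (0.84, SE 0.19, limma adjusted p = 0.449), and 0.66 without biochip 15. Several other leading genes act in transcription or RNA processing: the kinase Cdk12 of RNA polymerase II (0.38, SE 0.09), the polyadenylation factor Fip1l1 (0.32, SE 0.08), the splicing protein Wbp11 (0.40, SE 0.10), Ing4, a chromatin reader (0.52, SE 0.13), and Rbm18, an RNA-binding protein (0.67, SE 0.17). They were grouped after their values were seen, and no list of such genes was examined.

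**Figure D5:**
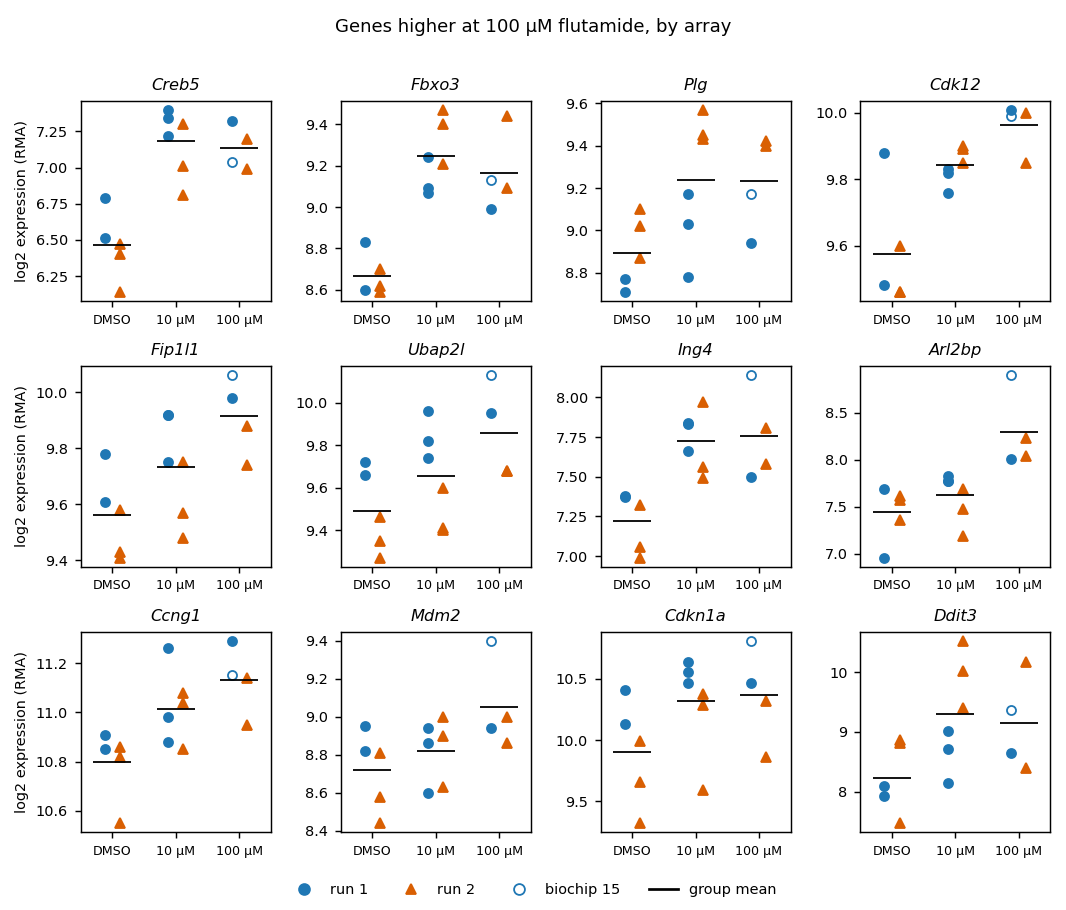
Log2 expression (vertical axes) of 12 genes higher at 100 µM in every array of the 3 groups, drawn as for the lower genes. In Creb5, Fbxo3, Ing4, Arl2bp and Ccng1 all 4 arrays at 100 µM lie above all 5 DMSO arrays, while in Ddit3 and Cdkn1a the groups overlap.

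Aknad1 had the largest difference upward among the named genes, 1.51 (SE 0.43, limma adjusted p = 0.638), and it came from 1 run. In run 1 the DMSO levels were 9.82 and 9.78 and the 100 µM levels 9.72 and 9.95. In run 2 the DMSO levels were 7.02, 7.30 and 6.90 and the 100 µM levels 9.64 and 9.80. The 3 DMSO arrays of run 2 were thus the low ones, and the differences were 0.03 and 2.65. It was the 1 gene (0.00689%) whose difference depended on the run at an adjusted p under 0.05 in the interaction test. That number was 22 without biochip 16, 2 without biochip 15, biochip 26 or DMSO biochip 21, and 0 without biochip 27 or DMSO biochip 10.

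Markers of other cell types were measured beside these genes. In bulk samples, fewer cells of a type and less RNA per cell cannot be told apart. Of 19 Kupffer cell and macrophage markers, 16 were lower, with a median of -0.34, but the runs differed: 0.07 in run 1 and -0.73 in run 2. The median was -0.15 without biochip 27, -0.20 without biochip 26 and -0.15 without DMSO biochip 21. Their mean level was 5.73 to 6.66 in DMSO and 5.40 to 6.18 at 100 µM, and 10 of 19 had a mean log2 level of at least 6. The mannose receptor Mrc1 was -1.16 (SE 0.47), whereas Cd68, a lysosomal macrophage protein, was 1.18 (SE 0.42), with 0.31 in run 1 and 1.80 in run 2. These markers lay lower in the run in which the fatty acid, urea and bile acid genes were lowest, and their part in those results was not tested. Means of stellate cell markers were 5.00 to 5.17 in DMSO and 5.05 to 5.21 at 100 µM, those of cholangiocyte markers 4.79 to 4.86 and 4.79 to 4.91, and those of lymphocyte markers 4.46 to 4.58 and 4.50 to 4.70. Endothelial markers averaged 4.75 to 5.05 and 4.76 to 4.90, and the 7 red blood cell markers 4.80 to 5.29 and 4.66 to 5.74.

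The 10 µM arrays were compared with the same 5 DMSO arrays, so the doses share their controls and are given only side by side. Kynu was -0.88 at 10 µM and -1.50 at 100 µM, and Aqp8 -0.89 and -1.33. Gys2 was -0.48 and -1.13, and Sult1b1 -0.57 and -1.73. These lower genes were named for their values at 100 µM, which favours a larger difference at that dose. Hnf4a, by contrast, was -0.62 at 10 µM and -0.39 at 100 µM. Creb5 was 0.69 and 0.65, Fbxo3 0.59 and 0.51, and Ddit3 1.14 and 0.98, so these higher genes were not higher at the larger dose. The median of the fatty acid oxidation list was -0.18 at 10 µM and -0.34 at 100 µM, that of the urea and amino acid list -0.13 and -0.26, and that of the bile acid list -0.25 and -0.28.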

How the data were processed

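Expression was measured on 1 Affymetrix array per biochip. The authors deposited log2 values per probe set; RMA and Partek are named per the submitters' processing notes, with version and settings not given in the sources used here. Values were not normalized further. RMA gives no detection call, and the number of arrays limits the precision. Of 29214 probe sets, the 15310 with 1 gene symbol gave 14506 genes, by the brightest probe set where a gene had several (527 genes), and the 13904 lacking a sole gene name were not tested. Columns of no sample numbered 0.

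The members and the 41 gene lists (1139 of 1289 entries measured) were chosen with earlier results of these data known. All 15 arrays in 3 groups entered a limma 3.58.1 fit in R 4.3.3 (lmFit, eBayes), with the run as a 2-level block and 11 residual degrees of freedom, and p-values were adjusted by Benjamini-Hochberg over all genes. It was tested on simulated data. Lists were counted, with no set test.

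Named genes were, among genes of mean log2 of at least 6 with the same sign in each run and without biochip 15, the 12 of lowest p in each direction and the 5 largest differences in each direction at p under 0.01. Up to 2 members of each list at p under 0.05 with the same sign in both runs and a fixed set followed, 96 genes in all; other list members were named after their values were seen. Counts of genes past 1.5-fold and 2-fold were added after the data were seen. Some genes of the fixed set are not reported here. Promoter motifs were searched in 12 spellings, 1 of them (relaxed DR1) loosened after the promoters were read; the set of promoters printed was settled after motif counts had been seen. Alternatives were each array left out, no run block, each run alone, 9 arrays only, array weights, renewed quantile normalization, a limit on dim genes, the mean of probe sets, and eBayes with trend and robust settings.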

Additional observations from a re-analysis of the deposited data

Results flagged for a closer look

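Dixon's test was applied to each of the 96 named genes, in the 100 µM group and in the DMSO group. In 7 genes, 1 array lay far from the rest of its group. Chance alone meets the test in about 1 in 20 groups, so 7 is no more than chance would give. At 100 µM, Cdk12 was 9.85 in biochip 26 against 9.99 to 10.01 in the other arrays, and Clic1 was 6.96 in biochip 16 against 6.15 to 6.19. Cds1 was 6.25 in biochip 15 against 6.60 to 6.63, and Csf1 was 4.28 in biochip 26 against 4.34 to 4.35. Among the DMSO arrays, Ccng1 was 10.55 in biochip 22 against 10.82 to 10.91, and Dhrs3 was 6.77 in biochip 22 against 6.35 to 6.42. Hadh was 6.88 in DMSO biochip 10 against 7.44 to 7.62.

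The difference of Aknad1 between 100 µM and DMSO was larger in run 2 than in run 1 by 2.62 on the log2 scale, by the interaction term of the limma fit.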

How the results depend on the processing

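No paired analysis was possible because the biochip numbers are not shared between groups. No gene passed the adjusted threshold under any alternative except run 2 alone, which called 1, Aknad1 (2.65); the lowest adjusted p was 0.0767 with array weights and 0.096 without DMSO biochip 22. Of the 96 named genes, 91 to 96 kept their sign under each alternative that tested all of them, as did all 88 left by the limit on dim genes. Apart from the fixed set, the named genes were chosen for the same sign in each run. Some were also chosen for the same sign without the treated array of lowest weight. Under those alternatives their signs were set by the choice, so the counts there do not test how well the signs hold. With one array left out, genes lower at an unadjusted p under 0.05 numbered 317 to 681, genes separated within each run numbered 518 to 973 higher and 360 to 923 lower, genes differing between runs 0 to 22, and genes at least 1.5-fold different 161 to 393 lower and 37 to 71 higher. Without dim genes, 162 genes were higher at an unadjusted p under 0.05, 154 were higher without overlap and 25 were at least 1.5-fold higher. Run 2 alone gave 532 genes at least 1.5-fold lower and 159 higher, and run 1 alone 270 lower and 183 higher. Renewed quantile normalization gave 58 genes at least 1.5-fold higher and 2 differing between runs. Separation within runs has no value under the alternatives that change only the fit or use 1 run.

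Some genes changed sign, most of them near 0 and Cpt1a not (-0.41 over all arrays), and the cause was not tested. In run 1 alone, Hmox1 was 0.15, Trib3 0.16, Cyp2c11 -0.37, Cpt1a 0.15 and Ccnd1 0.08. In run 2 alone, Cyp1a1 was 0.12, Gclc -0.02 and Afp 0.05. With array weights, Cyp1a1 was 0.09 and Afp 0.01, without the run block Afp was 0.02, and with renewed quantile normalization Trib3 was 0.04. Over arrays left out, Cyp1a1 ranged from -0.26 to 0.19, Cyp7a1 from -0.07 to 0.04, Hmox1 from -0.47 to 0.34, Gclc from -0.05 to 0.08, Trib3 from -0.13 to 0.08, Afp from -0.11 to 0.04 and Cyp2c11 from -0.08 to 0.57. With 4 against 5 arrays, small differences and dim genes are poorly resolved.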

Other observations

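Proliferation and turnover genes were measured too. Of 45 cell cycle genes, 29 were higher and 16 lower, where 44.3% of all genes were lower, with a median of 0.03. Most were dim: 17 of the 45 had a mean log2 level of at least 6. Dim genes were lower less often than bright ones, of which 57.1% were lower. At an unadjusted p under 0.05, 4 were higher and 0 lower, against 3.43% and 3.42% of all genes. Pcna, the clamp of DNA replication, was 0.29 (SE 0.13, limma adjusted p = 0.726). Of 39 autophagy and lysosome genes, 17 were higher and 22 lower. At an unadjusted p under 0.05, 6 of them were higher and 1 lower, against the same shares of all genes. Atg14, which starts the autophagosome, had DMSO levels of 6.94, 7.06, 6.56, 6.36 and 6.05 and 100 µM levels of 7.09, 7.26, 7.14 and 7.12, without overlap (0.54, SE 0.19, limma adjusted p = 0.665). The 35 proteasome genes had a median of 0.01, with 0 at an unadjusted p under 0.05 by limma. None of these genes passed the adjusted threshold (0 of 14506).

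Androgen and steroid metabolism genes, which bear on the drug's known target, were higher in 12 and lower in 18 of 30, with a median of -0.03. Cytokine and chemokine genes were lower in 25 of 36, with a median of -0.23 that was -0.08 without DMSO biochip 22. By run the median was -0.01 and -0.21, and biochip 16 lay at 0.02.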
